A study of Lactuca sativa with 6 samples.

Results

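Heat shock proteins, other chaperones and late embryogenesis abundant (LEA) proteins were examined in leaves of lettuce plants that overexpress *LsAP2*. A gene was taken when its Swiss-Prot description names a heat shock or heat stress protein, DnaJ, a chaperone, a chaperonin, an LEA protein, Lea5, a dehydrin or the BAG family. This rule found 21 of the 2579 genes of the table. None is described as a chaperonin. Young leaves of 1-month-old plants of the cultivar S39 were used for RNA-seq, with 3 WT libraries and 3 of *LsAP2*-OE. In *LsAP2*-OE the coding sequence of *LsAP2* is driven by the cauliflower mosaic virus 35S promoter. The sources do not name the transgenic line or lines sequenced, so effects of *LsAP2* and of a single line cannot be told apart. The labels name no heat, drought or other stress treatment, and the libraries of both groups came from the same tissue and age.

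The heat shock system keeps proteins folded. Heat stress transcription factors of class A switch on the chaperone genes, and small heat shock proteins hold unfolding proteins. Hsp70 refolds them with J proteins, which pass it substrates, and BAG proteins, which help it release nucleotide. Hsp90 matures signaling proteins, and Hsp100 of the ClpB type pulls aggregates apart. LEA proteins, among them the dehydrins, are hydrophilic proteins known from maturing seeds and from drying or cold tissue.

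The authors listed only the genes they had called between these same libraries, so unchanged chaperone genes cannot appear here, and neither a count nor a p-value is independent evidence of a difference. Every gene has 1 normalized value in each library, of an unnamed normalization, so values of different genes are not ranked against each other, and the depth of the libraries is unknown. Groups were compared by limma on log2(value + 0.1), with Benjamini-Hochberg adjustment over the 2579 genes and a call at an adjusted p below 0.01, and SE stands for the standard error of a log2 fold change. The value of *LsAP2* (Lsat_1_v5_gn_3_89681) was 25.3 to 30.5 in WT and 209 to 224 in *LsAP2*-OE. Values summed over the table came to 112997 in WT replicate 1 and 97790 to 108937 in the other libraries. The histone genes, whose sum was 55216 in WT replicate 1 and 41425 and 43241 in the other WT libraries, stood apart in that library. As markers of the leaf, all 6 Rubisco small chain genes of the table were higher in *LsAP2*-OE and all 8 chlorophyll a-b binding proteins lower. All 13 genes described as a laccase or a xylem cysteine proteinase, taken as xylem markers, were higher. The phloem and guard cell markers, 1 gene each, were higher too. No gene described as a seed storage protein or oleosin was listed. The part of such tissue differences in the values below was not tested. In bulk leaf samples, fewer cells of a type and less RNA per cell cannot be told apart.

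In *LsAP2*-OE, 12 of the 21 genes were higher, 8 were lower and 1 was not called. Over the whole table, 59.1% of genes were higher and 39.6% lower, 98.7% together. The chaperone and LEA genes thus divided in the proportions of the whole table, and their median log2 fold change was 1.00 against 1.03 over all genes. WT and *LsAP2*-OE libraries did not overlap for the same 12 higher and 8 lower genes, beside 59.6% and 39.7%, or 99.4% together, over the table. Every class of more than 1 gene held genes of both directions. The single Hsp70, Hsp90 and Hsp100 genes were higher and the single histone chaperone was lower. For 1 gene alone, the smallest p of an exact permutation of 3 against 3 libraries is 0.1.

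**Figure D1:**
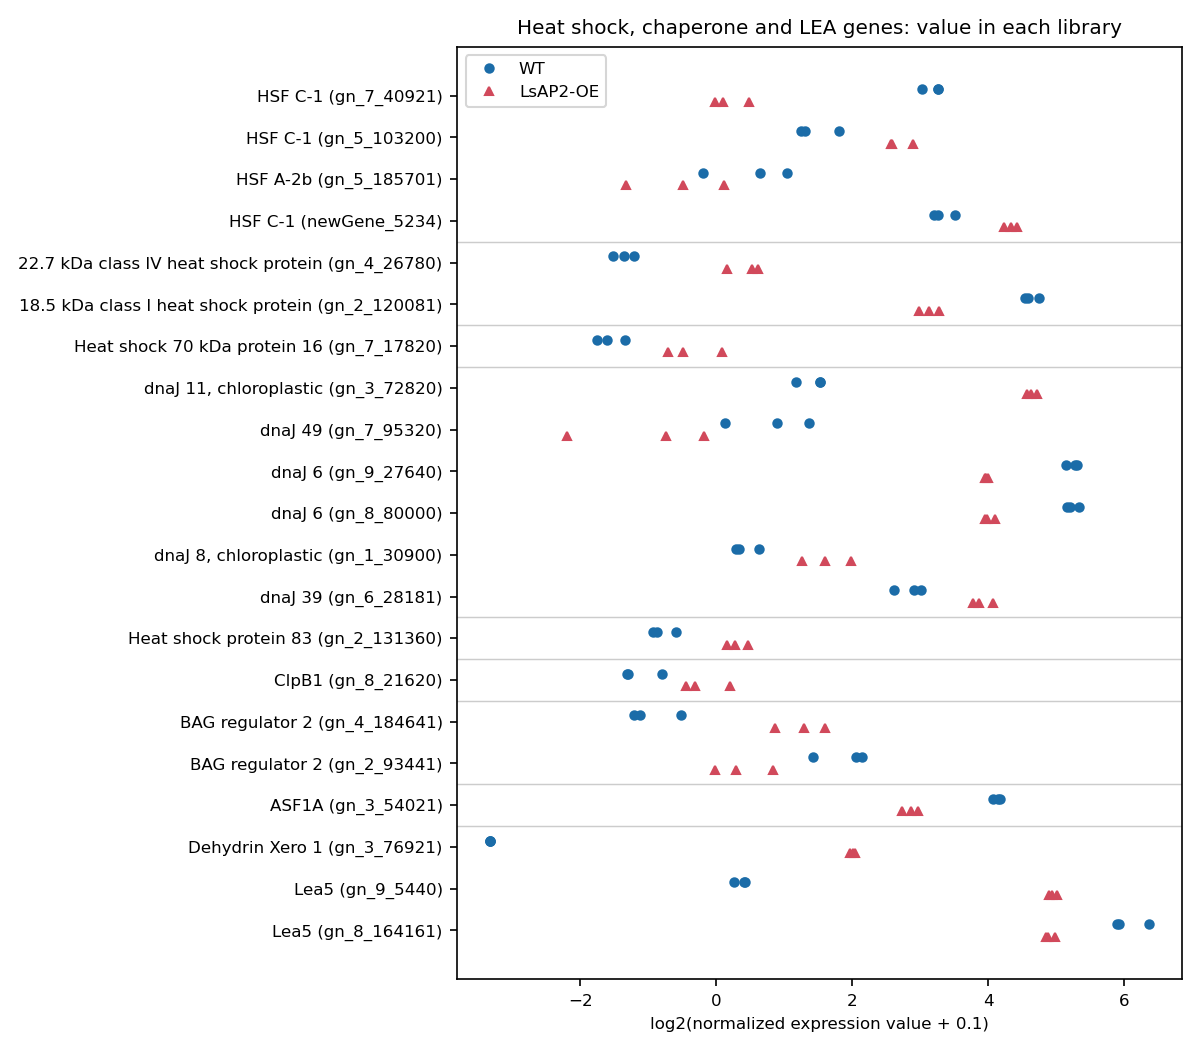
Value of each gene in each library on the scale log2(value + 0.1), with circles for the 3 WT and triangles for the 3 *LsAP2*-OE libraries, and lines between classes. In all genes but HSF A-2b the groups do not overlap, and Dehydrin Xero 1 is listed at 0 in all 3 WT libraries.

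**Figure D2:**
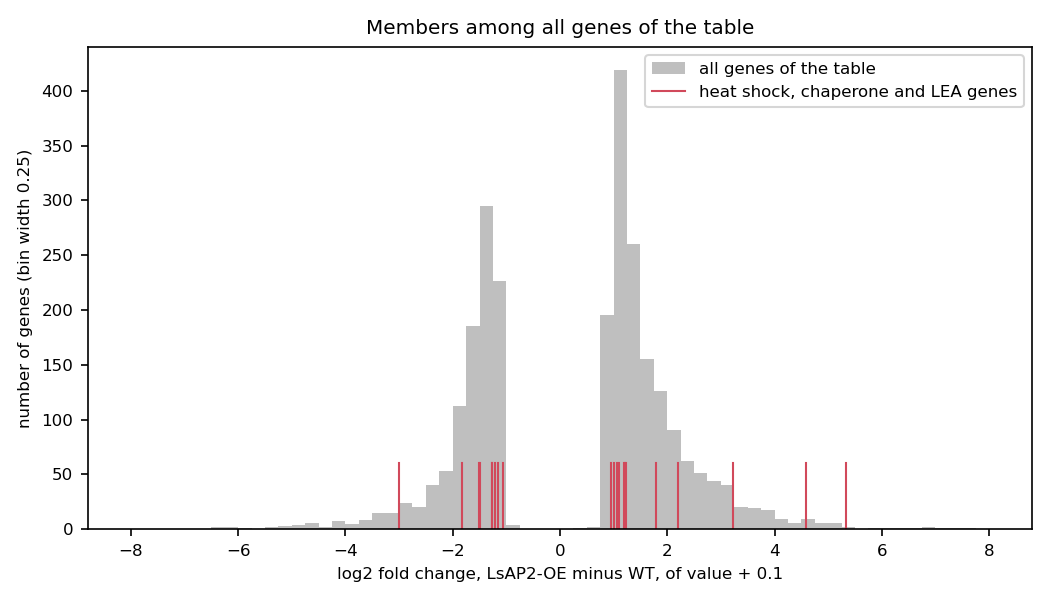
Number of genes by log2 fold change of *LsAP2*-OE over WT for the 2579 genes of the table (grey), with a line for each of the 21 chaperone and LEA genes. The gap around 0 reflects that only called genes are listed, and the 21 lines lie on both sides of it, from −3.00 to 5.33.

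Heat stress transcription factors moved in both directions. Of the 4 genes, 3 are described as the same factor, C-1, a class C factor in *Arabidopsis*. The first (Lsat_1_v5_gn_7_40921) had values of 9.50, 9.46 and 8.02 in WT and of 0.886, 0.969 and 1.30 in *LsAP2*-OE. Every *LsAP2*-OE library lay far below every WT library. The mean fell from 8.99 ± 0.843 to 1.05 ± 0.217 (SD, n = 3; log2 fold change −3.00, SE 0.17, limma adjusted p = 7.81e-07), the largest fall among the 21 genes on this scale. The second C-1 gene (Lsat_1_v5_gn_5_103200) moved the other way. Its values were 3.38, 2.27 and 2.36 in WT and 5.82, 7.32 and 5.91 in *LsAP2*-OE (log2 fold change 1.23, SE 0.18, limma adjusted p = 1.89e-04). The third (Lactuca_sativa_newGene_5234), whose ID marks it as a new gene, also rose. It went from 11.3, 9.13 and 9.44 in WT to 20.0, 21.4 and 18.6 in *LsAP2*-OE (log2 fold change 1.00, SE 0.10, limma adjusted p = 2.03e-05). The groups did not overlap in either of these rising genes.

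The fourth factor is described as A-2b of rice (Lsat_1_v5_gn_5_185701), from the class A that activates heat shock genes. Its values were 1.96, 0.773 and 1.47 in WT and 0.612, 0.301 and 0.979 in *LsAP2*-OE. WT replicate 2 lay below *LsAP2*-OE replicate 3, so the groups overlapped, and this was the only one of the 21 genes in which they did. The log2 fold change was −1.07 (SE 0.43), and the gene was not called (adjusted p = 0.0373 from limma). With each library left out in turn, the log2 fold change ran from −1.41 (without WT replicate 2) to −0.69 (without *LsAP2*-OE replicate 2).

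Both small heat shock proteins changed, in opposite directions. The 18.5 kDa class I protein (Lsat_1_v5_gn_2_120081), of a class that works in the cytosol, had values of 26.8, 23.0 and 23.9 in WT and of 7.77, 9.55 and 8.66 in *LsAP2*-OE. It fell from 24.5 ± 1.96 to 8.66 ± 0.887 (SD, n = 3; log2 fold change −1.49, SE 0.10, limma adjusted p = 1.72e-06). The 22.7 kDa class IV protein (Lsat_1_v5_gn_4_26780), of a class found in the endoplasmic reticulum, rose. Its values were 0.333, 0.289 and 0.251 in WT and 1.43, 1.02 and 1.34 in *LsAP2*-OE (log2 fold change 1.79, SE 0.21, limma adjusted p = 5.05e-05). The values of both proteins lay apart between the groups.

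The Hsp70, Hsp90 and Hsp100 genes were all higher. Heat shock 70 kDa protein 16 (Lsat_1_v5_gn_7_17820) is related in *Arabidopsis* to the large Hsp110 type, which assists Hsp70. It had values of 0.228, 0.198 and 0.294 in WT and of 0.966, 0.514 and 0.611 in *LsAP2*-OE (log2 fold change 1.20, SE 0.26, limma adjusted p = 0.00186). *LsAP2*-OE replicate 1 was the highest library. Heat shock protein 83 (Lsat_1_v5_gn_2_131360), an Hsp90 protein, had values of 0.564, 0.447 and 0.423 in WT and of 1.11, 1.01 and 1.29 in *LsAP2*-OE. It rose by 1.10 on the log2 scale (SE 0.20, limma adjusted p = 7.27e-04). ClpB1 (Lsat_1_v5_gn_8_21620), the Hsp100 disaggregase that plants need to survive severe heat, had values of 0.301, 0.306 and 0.475 in WT and of 0.637, 0.708 and 1.05 in *LsAP2*-OE. Replicate 3 was the highest library of its group in both genotypes, and the groups did not overlap. The log2 fold change was 0.96 (SE 0.26, limma adjusted p = 0.00596). This call was lost without WT replicate 1 (adjusted p = 0.0212) or WT replicate 2 (0.0213), without *LsAP2*-OE replicate 2 (0.0126) or replicate 3 (0.0238), and with the same median in every library (0.0324), within a range of 0.00457 to 0.0324 over all alternatives, and 11 genes were then called higher. These 3 genes and the class IV small heat shock protein are the 4 of the 21 with a mean value under 1, and no library value among them exceeded 1.43. On such values the size of a change rests on the pseudocount. When 1 was added to the values instead of 0.1, the log2 fold changes were 0.44 for Heat shock 70 kDa protein 16, 0.53 for Heat shock protein 83, 0.40 for ClpB1 and 0.80 for the class IV protein. The ratios of the means without a pseudocount were 2.91, 2.38, 2.21 and 4.34, in the same order.

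The J proteins were the largest class, with 3 of 6 higher and 3 lower. Chaperone protein dnaJ 11 (Lsat_1_v5_gn_3_72820), described as chloroplastic, rose most. It had values of 2.78, 2.15 and 2.78 in WT and of 24.5, 26.2 and 23.7 in *LsAP2*-OE. The mean rose 9.64-fold, from 2.57 ± 0.363 to 24.8 ± 1.27 (SD, n = 3; log2 fold change 3.23, SE 0.12, limma adjusted p = 1.07e-07). The other chloroplastic J protein, dnaJ 8 (Lsat_1_v5_gn_1_30900), had values of 1.12 to 1.44 in WT and 2.30 to 3.86 in *LsAP2*-OE and rose by 1.20 on the log2 scale. In the whole table, 164 of the 195 genes described as chloroplastic were higher and 31 lower, or 84.1% and 15.9%. Over all genes the shares were 59.1% and 39.6%, and no test of this list was run. The third higher gene, dnaJ 39 (Lsat_1_v5_gn_6_28181), had values of 6.01 to 7.98 in WT and of 13.5 to 16.6 in *LsAP2*-OE, with a log2 fold change of 1.06.

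The lower J proteins include a pair described as dnaJ 6. One (Lsat_1_v5_gn_9_27640) had values of 38.7, 35.1 and 39.6 in WT and of 15.5, 15.4 and 15.9 in *LsAP2*-OE (log2 fold change −1.27, SE 0.07, limma adjusted p = 6.31e-07). The other (Lsat_1_v5_gn_8_80000) had values of 40.0, 36.7 and 35.4 in WT and of 15.4, 17.0 and 15.7 in *LsAP2*-OE (log2 fold change −1.21, SE 0.08, limma adjusted p = 1.14e-06). These genes fell together and by nearly the same amount. The last J protein, dnaJ 49 (Lsat_1_v5_gn_7_95320), varied most between libraries of a group of all 21 genes, with a within-group SD of 0.86 on the log2 scale against a median of 0.19 for the 21 genes. Its values were 0.993, 1.76 and 2.48 in WT and 0.498, 0.786 and 0.120 in *LsAP2*-OE. The groups did not overlap, and *LsAP2*-OE replicate 3 was the lowest library. The log2 fold change was −1.83 (SE 0.52, limma adjusted p = 0.00822), and −0.89 with a pseudocount of 1. The call was lost without WT replicate 2 (adjusted p = 0.0245), WT replicate 3 (0.0350), *LsAP2*-OE replicate 1 (0.0162) or replicate 3 (0.0161) of that group, within a range of 0.00360 to 0.0350 over all alternatives. Without these libraries in turn, 7 of the 21 genes were called lower.

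**Figure D3:**
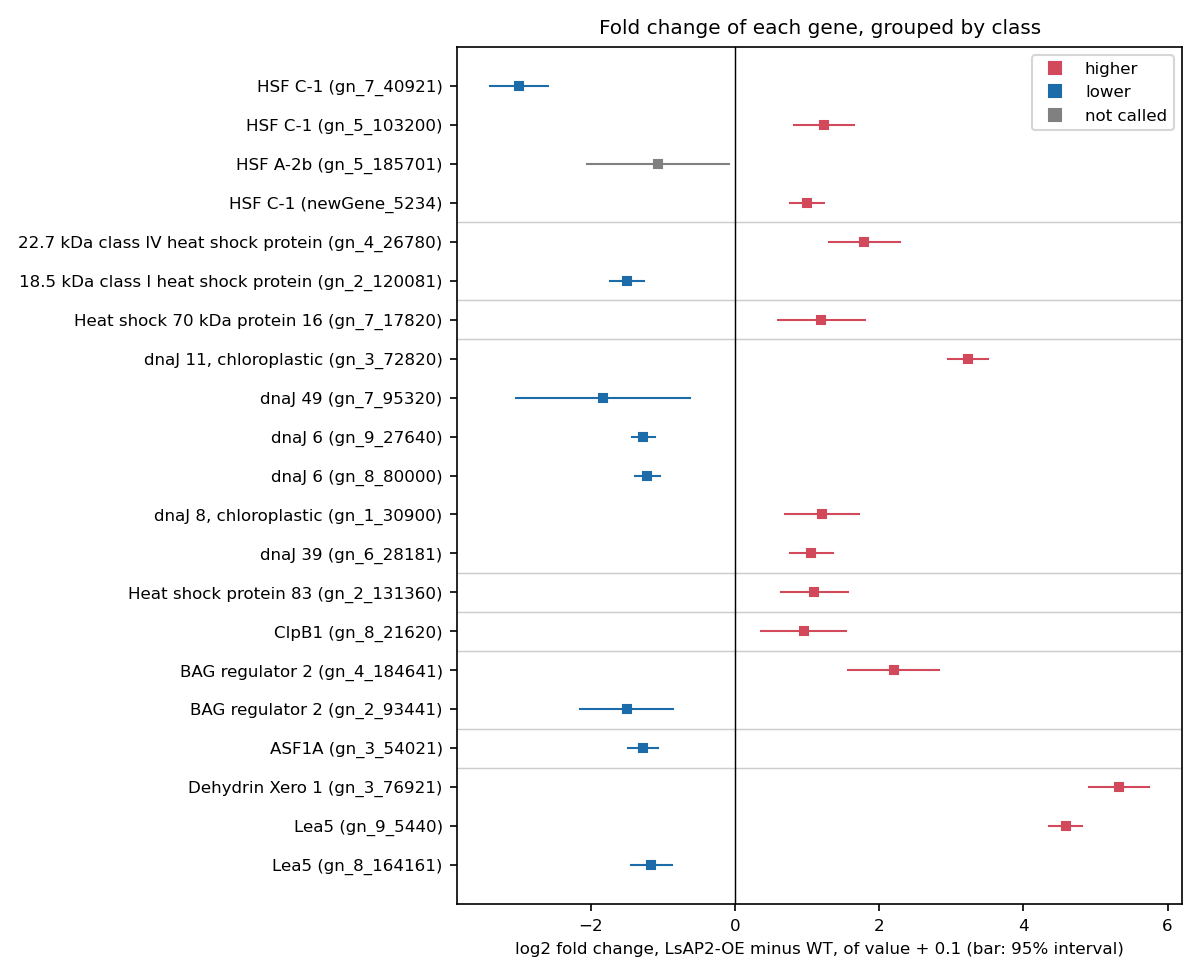
Log2 fold change of *LsAP2*-OE over WT of each of the 21 genes on the scale log2(value + 0.1), with 95% intervals from limma, grouped by class. The intervals of dnaJ 49 and HSF A-2b are the widest, and every class of more than 1 gene has squares on both sides of 0.

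Both BAG genes carry the same description, BAG family molecular chaperone regulator 2, a partner of Hsp70. The first (Lsat_1_v5_gn_4_184641) had values of 0.360, 0.597 and 0.333 in WT and of 2.34, 1.72 and 2.94 in *LsAP2*-OE. It rose 5.43-fold in its mean (log2 fold change 2.20, SE 0.27, limma adjusted p = 6.77e-05) and of 1.21 with a pseudocount of 1. The second (Lsat_1_v5_gn_2_93441) fell. It had values of 4.33, 2.57 and 4.06 in WT and of 0.891, 1.68 and 1.13 in *LsAP2*-OE (log2 fold change −1.50, SE 0.28, limma adjusted p = 7.55e-04). Replicate 2 lay closest to the opposite group for both genes and in both genotypes, without an overlap.

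The gene described as *ASF1A* (Lsat_1_v5_gn_3_54021) is the only histone chaperone. The protein does not act on heat-damaged proteins. It carries newly made histones to DNA during replication. Its values were 17.6, 16.7 and 18.0 in WT and 7.71, 6.56 and 7.17 in *LsAP2*-OE. The mean fell from 17.4 ± 0.625 to 7.15 ± 0.572 (SD, n = 3; log2 fold change −1.28, SE 0.09, limma adjusted p = 2.05e-06). The 78 histone genes of the table were all lower as well, with a median log2 fold change of −1.54. *ASF1A* was not highest in WT replicate 1, the library in which the histone genes stood apart.

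Of the 3 LEA genes, 2 rose steeply and 1 fell. Dehydrin Xero 1 (Lsat_1_v5_gn_3_76921) was listed at 0 in all 3 WT libraries and had values of 4.02, 3.92 and 3.80 in *LsAP2*-OE, or 3.91 ± 0.108 (SD, n = 3). No fold is given against a group listed at 0, and the fitted log2 fold change depends on the pseudocount (5.33 with 0.1, 2.30 with 1, 8.62 with 0.01, adjusted p = 7.81e-08 from limma). A gene described as Lea5 (Lsat_1_v5_gn_9_5440) had values of 1.23, 1.10 and 1.23 in WT and of 29.7, 30.6 and 32.1 in *LsAP2*-OE. The mean rose 25.9-fold, from 1.19 ± 0.0770 to 30.8 ± 1.23 (SD, n = 3; log2 fold change 4.59, SE 0.10, limma adjusted p = 1.63e-08). The libraries of each group lay close together in both genes. The other gene described as Lea5 (Lsat_1_v5_gn_8_164161) fell. It had values of 82.1, 60.6 and 59.2 in WT and of 28.7, 31.3 and 29.2 in *LsAP2*-OE, and WT replicate 1 stood above the other libraries. The mean fell from 67.3 ± 12.8 to 29.7 ± 1.36 (SD, n = 3; log2 fold change −1.16, SE 0.12, limma adjusted p = 2.39e-05). In the NR descriptions of the table, this gene is named for an auxin-induced protein, ARG2, and the first for another LEA protein.

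Of the 21 genes, 9 share a description with another, in 4 sets. In 3 of these sets genes moved in opposite directions, and their summed values changed less than those of the single genes. The Lea5 pair summed to 83.3, 61.7 and 60.4 in WT and to 58.4, 61.9 and 61.3 in *LsAP2*-OE, so that the groups overlapped. Within this sum, the share of Lsat_1_v5_gn_9_5440 went from 1.77% ± 0.284 to 50.9% ± 1.48 (SD, n = 3). The BAG pair summed to 4.69, 3.16 and 4.39 in WT and to 3.23, 3.40 and 4.07 in *LsAP2*-OE, again with an overlap. The share of Lsat_1_v5_gn_4_184641 in it went from 11.4% ± 6.48 to 65.1% ± 12.6 (SD, n = 3). The 3 C-1 factors summed to 24.2, 20.9 and 19.8 in WT and to 26.7, 29.7 and 25.8 in *LsAP2*-OE, higher without an overlap, while the share of Lsat_1_v5_gn_7_40921 went from 41.7% ± 3.19 to 3.87% ± 1.00 (SD, n = 3). The dnaJ 6 pair differed from these sets. Its sum went from 75.2 ± 3.47 to 31.6 ± 0.799 (SD, n = 3), and Lsat_1_v5_gn_9_27640 held 50.3% ± 2.16 of it in WT and 49.3% ± 1.61 in *LsAP2*-OE. No test was run on sums or shares. A sum over genes holds only if values are per length, which is not stated, and reads of similar copies can be assigned to the wrong one, which makes single copies uncertain.

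**Figure D4:**
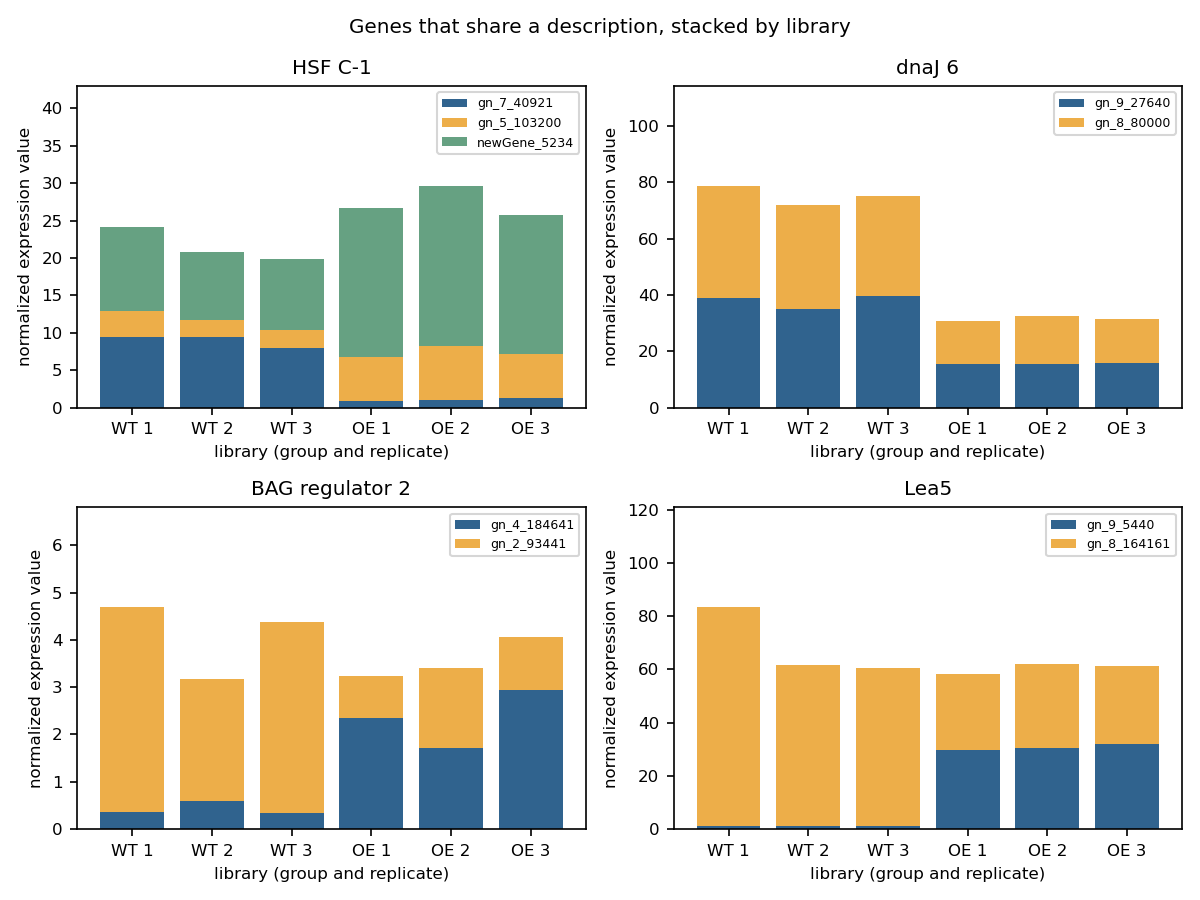
Values of genes that share a Swiss-Prot description, stacked for each of the 6 libraries, with 1 colour per gene. In *LsAP2*-OE the Lea5 and BAG sums overlap those of WT while the makeup differs, and both dnaJ 6 genes are lower.

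Other genes of protein folding and stress protection were counted by lists of words outside the rule. Folding helpers were mostly higher, 9 of 11, with a median log2 fold change of 1.19. The luminal-binding proteins 4 and 5, which are Hsp70 proteins of the endoplasmic reticulum, and the endoplasmin homolog, its Hsp90 protein, were among the higher genes. Calreticulin-3 (Lactuca_sativa_newGene_6586), in the same list, fell from 2.03 ± 0.391 to 0.778 ± 0.409 (SD, n = 3), with a log2 fold change of −1.39. The largest changes in this list were those of *FKBP65* (Lsat_1_v5_gn_1_69221), a prolyl isomerase, and of another prolyl isomerase (Lsat_1_v5_gn_3_45700). *FKBP65* rose from 3.83 ± 0.379 to 21.9 ± 0.518 (SD, n = 3), by 2.49 on the log2 scale, and the other had a log2 fold change of −1.51. All 5 proteases of protein quality control were higher, led by a chloroplastic Protease Do-like 5 gene (Lsat_1_v5_gn_7_27640) with a log2 fold change of 1.60 and *FTSH 10* (Lsat_1_v5_gn_2_77800) with one of 1.32. The last of these is described in NR as a mitochondrial chaperone of the BCS1 type. Genes of drought, cold and general stress were mostly lower, 10 of 13, with a median log2 fold change of −1.50. Most of the 13 are dehydration-responsive element-binding (DREB) factors, so the list is not a broad sample of stress genes. The largest falls were those of *DREB1D* (Lsat_1_v5_gn_9_54680) and a *DREB1B* gene (Lsat_1_v5_gn_9_54780), factors that switch on cold response genes. Their log2 fold changes were −5.08 and −4.13. The other 3 of the 13 rose. A universal stress protein (Lsat_1_v5_gn_1_56381) rose by 3.14 on the log2 scale, *DREB1A* (Lsat_1_v5_gn_9_53960) by 1.58 and *DREB2F* (Lsat_1_v5_gn_9_27440) by 1.49. *DREB1C* (Lsat_1_v5_gn_9_114720) and another *DREB1B* gene (Lsat_1_v5_gn_9_54581) also fell, with log2 fold changes of −2.09 and −1.42. *DREB1A* was thus the only *DREB1* factor of the list to rise, at low values of 0.464 to 1.10 in WT and 1.62 to 2.75 in *LsAP2*-OE. These counts stand beside 59.1% higher and 39.6% lower over the table. Several folding helpers and proteases are described as chloroplastic, and of all genes so described 84.1% were higher. The rise is therefore not shown to be particular to folding or quality control, and no test of the lists was run.

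**Figure D5:**
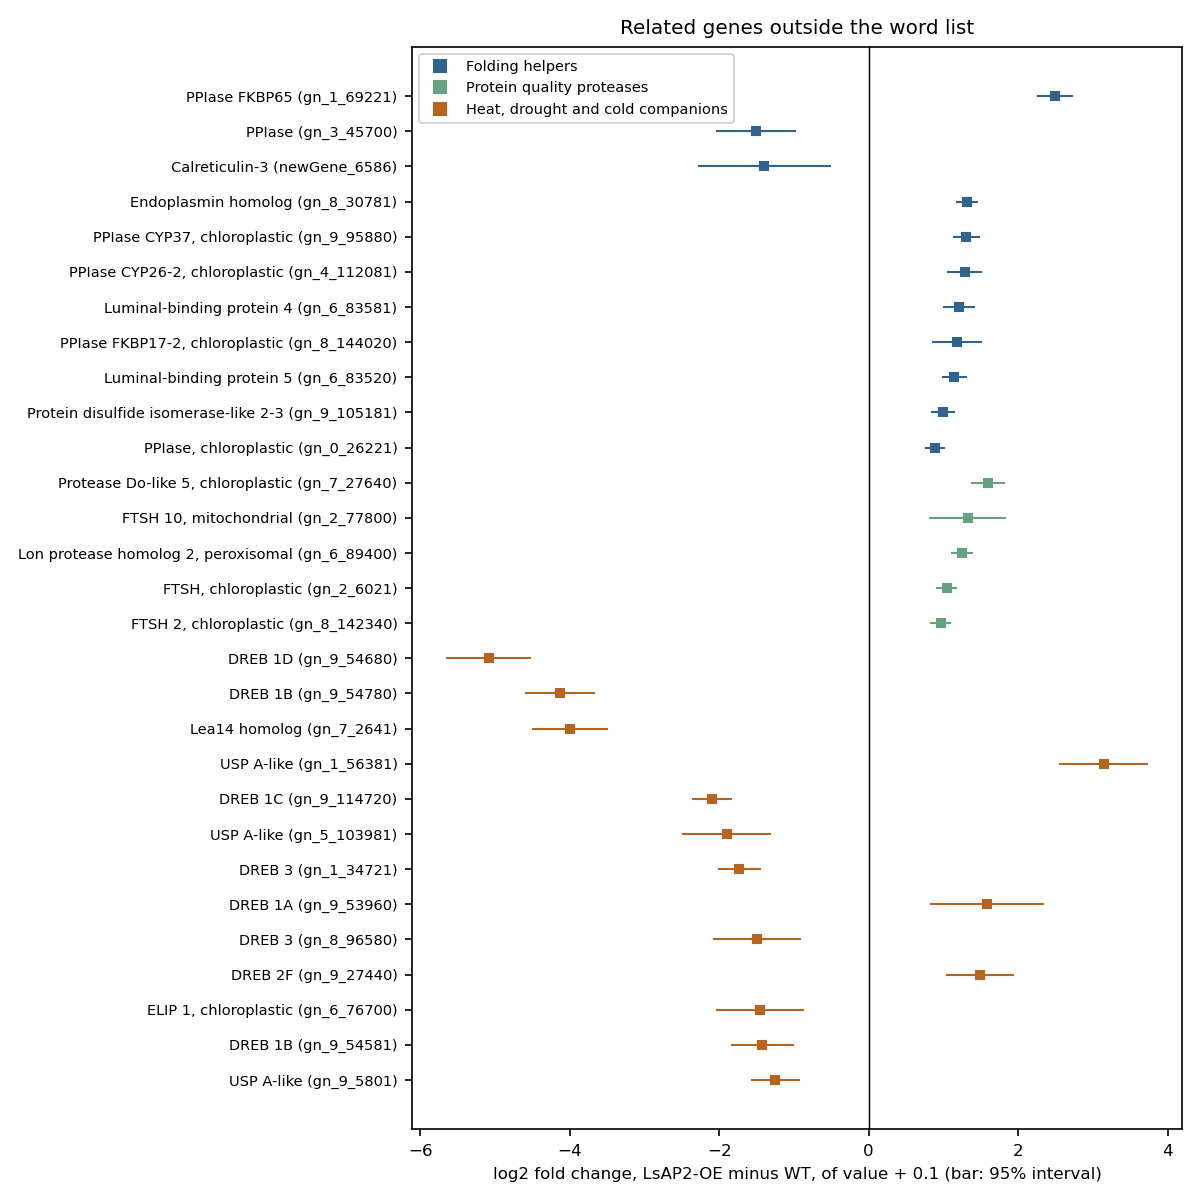
Log2 fold change of *LsAP2*-OE over WT, with 95% intervals from limma, of 11 folding helpers, 5 proteases of protein quality control and 13 genes of drought, cold and general stress outside the rule. Folding helpers and proteases lie mostly to the right of 0, and 10 of the 13 stress genes to the left.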

How the data were processed

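Alignment by the authors used HISAT2 on BMKCloud, and DESeq chose the genes (at least 2-fold, FDR under 0.01). Quantifier, versions and build were not given in the sources used here. As deposited, the signal is normalized expression, with 1 value for every gene and library. The authors' FDR column is an adjusted p-value, and the authors' log2 column a fold change. Both come from their DESeq comparison and were not used. Here, log2(value + 0.1) of all 2579 genes was fitted in R 4.3.3 by limma 3.58.1, using its mean-variance trend but neither a filter on low values nor a replicate block. Figures were drawn with matplotlib 3.10.9. All 21 members are named, and full statistics go to up to 4 per class, by absolute log2 fold change. Related lists give up to 2 genes by the same rule. The luminal-binding proteins, endoplasmin, calreticulin-3 and the higher stress genes were added after their values were seen. The members and lists were chosen with earlier results of these data known. In simulated data for *LsAP2*-OE against WT over 2579 genes, 84%, 72%, 60% and 94% of 50 genes were recovered at log2 changes of −2, −1, 1 and 2, with 2 calls among 2379 unchanged genes. Most of those 2579 genes were set as unchanged, whereas 98.7% of the real table was called. How these rates carry over to the real table was not tested. No gene ID matched the RefSeq table of lettuce (0 matches), so no sequence or position is given. The authors name 3 biological replicates. Whether these were separate plants or pools is not stated, so p-values measure only the spread between these libraries.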

Additional observations from a re-analysis of the deposited data

How the results depend on the processing

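The alternatives were pseudocounts of 1 and 0.01, genes of mean value at least 1 alone, centring within groups, the same median in every library, a replicate block, no mean-variance trend, an adjusted p below 0.05, a required change of at least 2-fold, each library left out, and members matched by the NR description. No gene changed direction under any of these. Of the 21 genes, 11 to 12 were higher and 7 to 8 lower when each library was left out in turn, and of all 2579 genes, 1472 to 1501 were higher and 996 to 1008 lower. Matched by the NR description, 17 genes were found, 10 of them among the 21. Of the 17, 12 were higher and 5 lower, beside 59.1% and 39.6% over the table. The smaller number of lower genes follows from this list. With genes of mean value at least 1 alone, 8 were higher, since 4 genes drop out. No pairing by replicate number was seen in the values: deviations of same-numbered libraries correlated at −0.04 to 0.01. This cannot show whether same-numbered samples were grown or harvested together. With the replicate block, HSF A-2b was called (adjusted p = 0.00667, range over all alternatives 0.00667 to 0.128) and dnaJ 49 was not (0.0129, range 0.00360 to 0.0350), and 12 genes were higher and 8 lower. HSF A-2b was also called at an adjusted p below 0.05. dnaJ 49 was lost with a pseudocount of 0.01 (0.0147) and without the mean-variance trend (0.0175). ClpB1 missed the fold change of at least 2. With a pseudocount of 1, the log2 fold change of HSF A-2b was −0.55. The same median in every library shifted the median log2 fold change of all genes by −0.28 and left 11 genes higher and 8 lower. The depth of the libraries is unknown, so no precision from counting can be set beside these values.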

Other observations

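By their NR descriptions alone, 7 further genes carry one of the words of the rule, 5 higher and 2 lower in *LsAP2*-OE. Over the whole table, 59.1% of genes were higher and 39.6% lower, so these counts are not evidence about the 7 genes. All were chosen after their values were seen. A gene described in NR as a dehydrin and in Swiss-Prot as cold-shock protein CS120 (Lsat_1_v5_gn_3_77021) had values of 0.0343, 0 and 0.198 in WT and of 0.868, 1.40 and 1.04 in *LsAP2*-OE. Another dehydrin by NR, phosphoprotein ECPP44 (Lsat_1_v5_gn_9_46540), went the other way, with values of 9.66, 8.92 and 9.67 in WT and of 2.93, 3.84 and 3.57 in *LsAP2*-OE. The desiccation protectant Lea14 homolog (Lsat_1_v5_gn_7_2641) had values of 4.69, 3.60 and 4.26 in WT and of 0.211, 0.121 and 0.180 in *LsAP2*-OE. The dehydrins and LEA genes found by either description thus held genes of both directions. The other 4 genes are described in NR as mitochondrial chaperones of the BCS1 type, and all were higher. One of them is the *FTSH 10* gene (Lsat_1_v5_gn_2_77800) already counted among the proteases, and the Lea14 homolog is also counted among the stress genes. Another BCS1 gene by NR (Lsat_1_v5_gn_2_77780) had 3.20, 3.76 and 3.89 in WT and 16.0, 13.0 and 14.8 in *LsAP2*-OE. Swiss-Prot describes it instead as 26S protease regulatory subunit 6A homolog A, so its identity is not settled here.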
